A study of Mus musculus with 9 samples.

Results

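Chemokine genes were described here across 3 culture conditions of 4T1, a breast cancer line of the mouse without estrogen, progesterone or HER2 receptors. The 10 genes were a given list, Cxcl1, Cxcl2, Cxcl3, Cxcl5, Cxcl16, Ccl2, Ccl5, Ccl7, Ccl20 and Cx3cl1, and all 10 were found by symbol among the 24421 genes of the count table. Expression was measured by poly(A) RNA-seq in 9 libraries, 3 for each condition, after 5 days of culture. The first condition was 3D spheroids, grown over a layer of soft agar, without additional palmitate. The second was 3D spheroids with 75 µM palmitate, a saturated fatty acid that was supplied bound to albumin. The third was 2D monolayers that received 75 µM palmitate as well, and no 2D culture without additional palmitate was analysed here. All cultures were of 1 cell line in medium with serum, and cells grown without additional palmitate received the same albumin and solvent stock. A comparison of 3D with 2D cultures was therefore made only with palmitate, and a comparison of palmitate only in 3D, and the 3D cultures with palmitate took part in both.

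Chemokines are small secreted proteins that bind receptors coupled to G proteins and draw white blood cells along a gradient. CXCL1, CXCL2, CXCL3 and CXCL5 share the receptor CXCR2 and attract neutrophils, CCL2 and CCL7 attract monocytes through CCR2, CCL5 attracts T cells and other cells, and CCL20 attracts cells with CCR6. CXCL16 and CX3CL1 are made as membrane proteins on a mucin stalk that proteases such as ADAM10 and ADAM17 can cleave, and their receptors are CXCR6 and CX3CR1. Tumor cells, 4T1 among them, can make several of these factors themselves, and many chemokine genes are known targets of the transcription factor NF-κB.

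Some of the 10 genes lie side by side in GRCm38. Cxcl5, Cxcl3, Cxcl1 and Cxcl2 follow each other on the plus strand of chromosome 5, chr5:90759360-90905938, a stretch of 146.579 kb. On chromosome 11, Ccl2 and Ccl7 lie within 11.955 kb on the plus strand, chr11:82035571-82047525, Ccl5 lies on the minus strand at chr11:83525778-83530518, and Cxcl16 lies on the minus strand at chr11:70453983-70459984. Ccl20 is at chr1:83116766-83119167 and Cx3cl1 at chr8:94772009-94782427, both on the plus strand. Exons of Cxcl16 overlap those of Zmynd15 on the opposite strand, so without the strand setting of the counting, which the sources used here do not give, part of its reads cannot be told apart from those of Zmynd15. Zmynd15 itself had 1.23 ± 0.28 CPM (counts per 1000000 of the scaled library; SD, n = 3) in 3D with palmitate and 3.48 ± 0.40 CPM (SD, n = 3) in 2D. Cxcl2 and Cxcl3 have 126 stretches of 50 bases in common, the read length, which make up 5.84% of the stretches of Cxcl2, and 4.29% of those of Cxcl3 recur in Cxcl2 or another transcript, so their low counts are less certain than those of the other genes.

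Promoter sequences from RefSeq (GRCm38.p6) matched 5 of the 10 genes, and 120 bases around each annotated start are shown because 3 of the 5 are the neighbouring Cxcl genes whose levels are compared further on. Each runs 5′ to 3′ on the plus strand and ends 10 bases into the transcript by the RefSeq start. The gene positions above are from GENCODE M21, and its starts can differ from those of RefSeq. For Cx3cl1 the gene as placed above starts at 94772009, so the whole printed window lies inside it. For Cxcl2 it starts at 90903871, within the printed window. Capitals mark a match to the NF-κB site or to the exact letters TATAAA of a TATA box, both searched on both strands.
Cxcl1, chr5:90891135-90891254: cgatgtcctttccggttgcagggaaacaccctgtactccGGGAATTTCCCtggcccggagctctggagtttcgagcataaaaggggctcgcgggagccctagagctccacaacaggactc
Cxcl2, chr5:90903789-90903908: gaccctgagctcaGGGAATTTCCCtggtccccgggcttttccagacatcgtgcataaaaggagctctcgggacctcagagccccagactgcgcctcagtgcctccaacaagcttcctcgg
Cxcl3, chr5:90785991-90786110: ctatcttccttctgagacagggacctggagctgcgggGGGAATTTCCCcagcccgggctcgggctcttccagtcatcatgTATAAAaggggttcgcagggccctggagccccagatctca
Ccl20, chr1:83116656-83116775: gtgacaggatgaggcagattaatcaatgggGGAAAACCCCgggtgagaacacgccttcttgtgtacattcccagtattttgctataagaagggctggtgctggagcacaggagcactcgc
Cx3cl1, chr8:94772070-94772189: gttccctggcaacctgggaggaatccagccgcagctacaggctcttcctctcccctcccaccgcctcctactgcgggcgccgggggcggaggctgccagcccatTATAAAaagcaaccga
The NF-κB site was found in 4 of the 5 windows, and 8.46% of 32851 promoter windows of 300 bases hold it. In Cxcl1, Cxcl2 and Cxcl3 the 11 capital letters are identical and read as a site on both strands, with the first base of the plus-strand match at -71, -97 and -73 from the RefSeq start. In Ccl20 the match is on the minus strand and begins at -80. In Cx3cl1 no match was found in the window, most of which lies downstream of the gene start given above. TATAAA was found in Cxcl3, beginning at -30, and in Cx3cl1, beginning at -6 and ending directly before the RefSeq start. Of the windows of all promoters, 13.6% hold it. Letters that differ from TATAAA by a base, as in Cxcl1 and Cxcl2, were not searched, and the match in Cx3cl1 is not taken for a TATA box. A match describes the letters only and says nothing of binding in these cells.

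The libraries held between 6595514 and 31177756 counts, and the smallest was replicate 3 of the 3D cultures with palmitate. The ribosomal RNA precursor Rn45s took between 1.77% and 5.38% of the counts. The epithelial markers Krt8, Krt18, Epcam and Cdh1 were among the well-covered genes in all 9 libraries, summed over the list of 8 markers at 3367 to 4720 CPM, and of the basal keratins Krt14 lay between 112 and 197 CPM while Krt5 had 1 count in all. Of 7 epithelial markers tested, Epcam, Krt8 and Esrp1 were among the 4 called higher and Cldn4 was the 1 called lower in 3D than in 2D, and with palmitate in 3D 0 were called higher and 2 lower, Krt14 and Esrp1, at log2 fold changes of -0.52 and -0.41 (edgeR adjusted p = 0.00517 and 0.00705). Over all genes, 34.5% were called higher and 33.9% lower in 3D than in 2D, and 1.38% higher and 0.811% lower with palmitate. Endothelial markers, led by Pecam1, stayed under 1 CPM in each library, the T cell and NK markers, led by Cd8a at 1 count at most in a library, summed to at most 0.0891 CPM, and the neutrophil and macrophage markers are given beside the results. After removal of genes with few counts, 12575 genes were tested with edgeR, and 9 of the 10 chemokine genes were among them. Ccl7 was not, with 0 to 16 counts per library. The labels do not say whether libraries of a condition came from separate cultures, so p-values measure the spread between these libraries.

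The chemokine transcripts of 4T1 cells were few in kind and very unequal in level. Compared per kb of annotated exon, Cxcl1 had the highest mean of the 10 in every condition. It was at 79.2 CPM per kb in 3D without palmitate, 90.3 in 3D with palmitate and 86.2 in 2D. The second place by mean was held by Cx3cl1 in 3D, at 76.1 CPM per kb without and 74.7 with palmitate, and by Cxcl5 in 2D, at 70.7 CPM per kb. In 3D without palmitate Cx3cl1 was slightly above Cxcl1 in replicates 1 and 2 and below it in replicate 3, so their order there is not settled. In plain CPM Cx3cl1 was above Cxcl1 in 3D, at means of 299 against 149 CPM without palmitate and 294 against 169 with. Cx3cl1 was in place 6 in 2D, at 12.5 CPM per kb, below Cxcl1, Cxcl5, Cxcl16, Ccl5 and Ccl2. Cxcl2, Cxcl3 and Ccl7 held the last 3 places in all conditions, each at 1.51 CPM per kb or less.

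As a share of the summed CPM per kb of the 10 genes, Cxcl1 made up 37.8% ± 1.3 (SD, n = 3) in 3D without palmitate, 39.4% ± 3.0 (SD, n = 3) in 3D with palmitate and 35.5% ± 0.90 (SD, n = 3) in 2D. The share of Cx3cl1 was 36.4% ± 1.7 (SD, n = 3), 32.9% ± 4.5 (SD, n = 3) and 5.13% ± 0.10 (SD, n = 3) in the same order. Cxcl1 and Cx3cl1 thus made up most of the mixture in 3D, and in 2D several other genes filled the share that Cx3cl1 had there. Cxcl5 made up 17.6% ± 2.0 (SD, n = 3) in 3D with palmitate and 29.1% ± 0.57 (SD, n = 3) in 2D, Cxcl16 5.50% ± 0.27 and 12.1% ± 0.20, and Ccl5 1.15% ± 0.13 and 9.87% ± 0.96 (SD, n = 3 each). The summed level of the 10 genes was 209 ± 10.4 CPM per kb in 3D without palmitate, 228 ± 15.9 in 3D with palmitate and 243 ± 6.2 in 2D (SD, n = 3 each), and the 3D with palmitate and 2D ranges overlapped, at 214 to 245 and 238 to 250. Without division by length the order was the other way, at 589 ± 24.7 CPM (561 to 608) in 3D with palmitate and 483 ± 11.2 CPM (474 to 495) in 2D (SD, n = 3 each), so a direction of the sum depends on the scale.

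**Figure D1:**
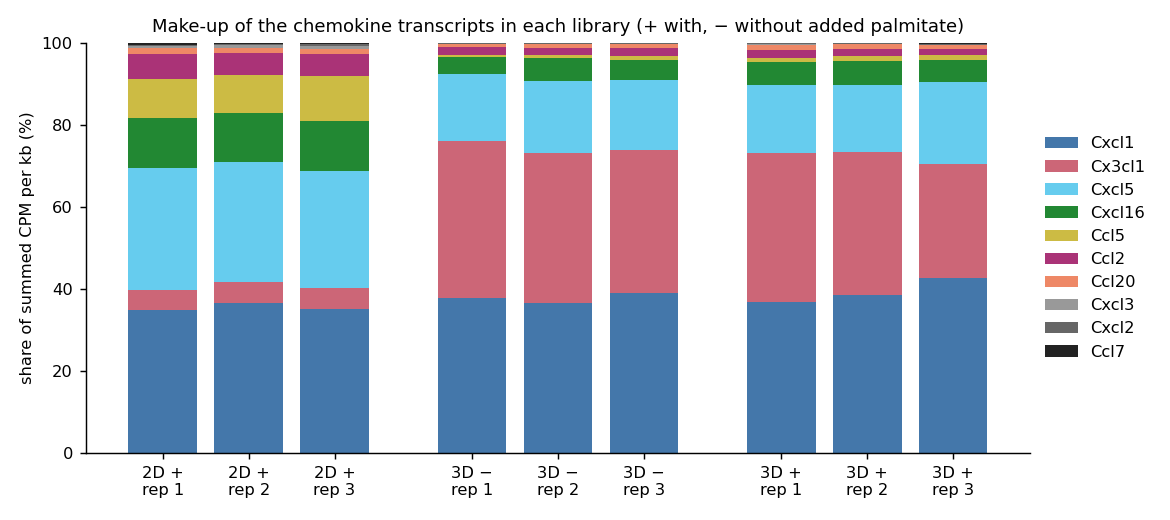
Make-up of the chemokine transcripts in each library, as the share (%) of each of the 10 genes in their summed CPM per kb; each bar is 1 library, in 2D with palmitate (2D +), 3D without (3D −) and 3D with palmitate (3D +). The Cx3cl1 segment is between 27.8% and 38.1% of the bar in the 6 3D libraries and between 5.03% and 5.22% in the 3 2D libraries.

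Whether 3D growth came with a different set of chemokine transcripts was asked first, between 3D and 2D cultures that both had palmitate. Cx3cl1 was 6.0-fold higher in 3D, whereas Ccl5 was 9.63-fold, Cxcl3 5.78-fold, Ccl2 3.31-fold, Cxcl16 2.35-fold and Cxcl5 1.77-fold lower. Cxcl1, Cxcl2 and Ccl20 did not pass the test. Of the 9 genes tested, 6 were called at an adjusted p under 0.05 in edgeR's quasi-likelihood test, 1 higher and 5 lower in 3D, beside 68.3% of all 12575 genes called, 34.5% higher and 33.9% lower. A share of 66.7% is near that of all genes, so the number called is not a result about chemokines. The median log2 fold change of the 9 genes was -0.83, beside 0.01 over all genes. The libraries of the 2 conditions did not overlap for 7 of the 9, the 6 called genes and Ccl20, beside 69.4% of all genes. In these bulk cultures, fewer cells that express a gene and less RNA of it per cell cannot be told apart.

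**Figure D2:**
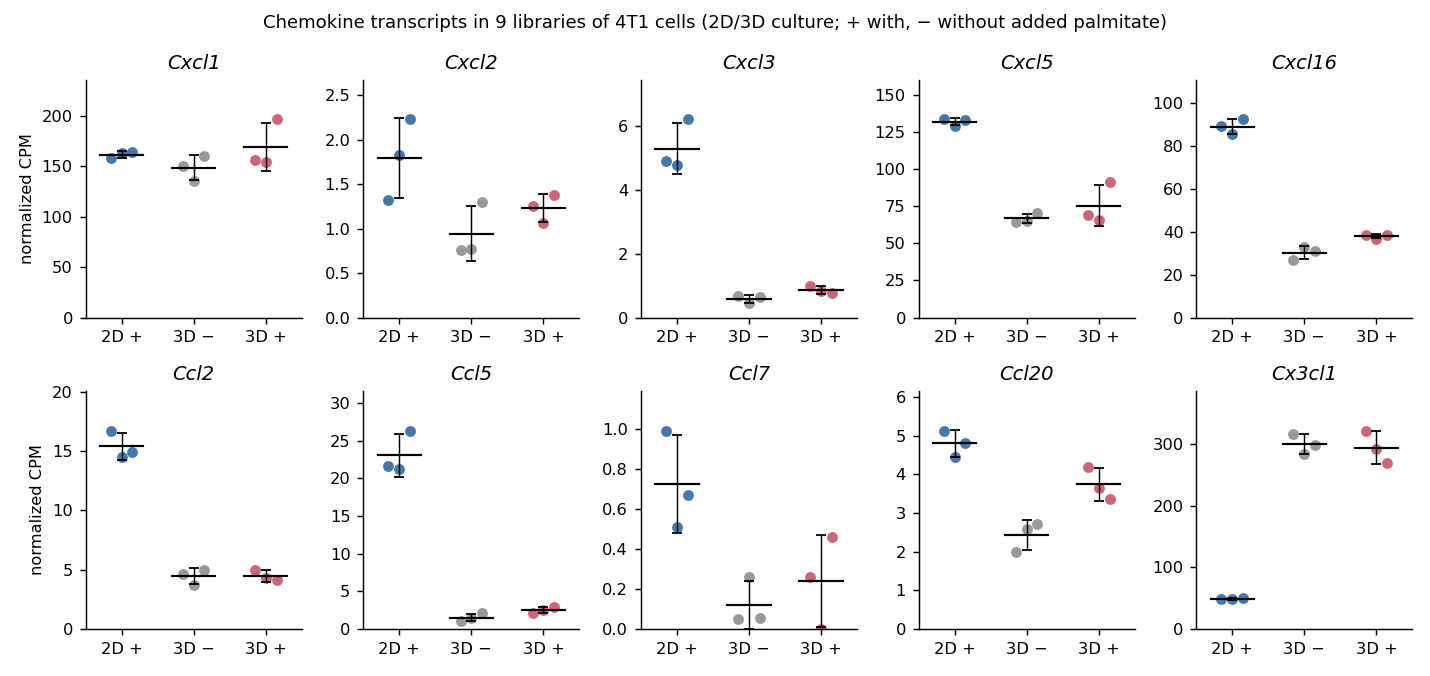
Normalized CPM of the 10 chemokine genes in 9 libraries, 1 panel per gene with its own axis from 0; points are libraries, horizontal lines means and bars ± 1 SD (n = 3), in 2D with palmitate (2D +), 3D without (3D −) and 3D with palmitate (3D +). Cx3cl1 is the 1 gene with all 3D libraries above all 2D libraries, while Cxcl3, Cxcl5, Cxcl16, Ccl2, Ccl5, Ccl7 and Ccl20 have all 2D libraries on top.

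Cx3cl1 encodes fractalkine, a ligand for CX3CR1 on monocytes, NK cells and T cells that can also tether them while still attached to the membrane. It was at 316, 284 and 297 CPM in 3D without palmitate, at 321, 292 and 268 CPM in 3D with palmitate and at 47.7, 48.8 and 50.6 CPM in 2D. The 6 3D libraries lay far above the 3 2D libraries, and the 3D conditions overlapped each other. The log2 fold change in 3D against 2D was 2.58 (standard error 0.0773, edgeR adjusted p = 1.98e-12), larger in size than that of 97.6% of all genes tested. Raw counts behind these values ran from 577 to 8728 per library.

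Cxcl16, the other membrane-bound chemokine and also a scavenger receptor for oxidised lipoprotein, went the other way. It was at 26.9, 33.0 and 30.97 CPM in 3D without palmitate, at 38.4, 36.8 and 38.4 CPM in 3D with palmitate and at 89.3, 85.5 and 92.5 CPM in 2D. Each 2D library was above each 3D library. Its log2 fold change in 3D against 2D was -1.23 (standard error 0.0767, edgeR adjusted p = 3.85e-09). The pair thus changed places per kb: Cx3cl1 had 74.7 and Cxcl16 had 12.5 CPM per kb in 3D with palmitate, against 12.5 and 29.5 CPM per kb in 2D.

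The 4 ligands of CXCR2 differed among themselves. Cxcl1, the highest of the 10 by mean CPM per kb, was at 150, 135 and 160 CPM in 3D without palmitate, at 157, 155 and 196 CPM in 3D with palmitate and at 158, 163 and 164 CPM in 2D. Replicate 3 of the 3D cultures with palmitate, the smallest library, was the highest of the 9, and all conditions overlapped. The log2 fold change in 3D against 2D was 0.06, with a 95% interval from -0.13 to 0.25 (edgeR adjusted p = 0.582). Without that library it was -0.06 (edgeR adjusted p = 0.456), and with each library's trend in GC content and length removed it was 0.18 and called (edgeR adjusted p = 0.0222).

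Cxcl5 was at 64.6, 65.3 and 70.2 CPM in 3D without palmitate, at 69.2, 65.7 and 91.3 CPM in 3D with palmitate and at 133, 129 and 133 CPM in 2D. Here too the smallest library was the highest of its condition, yet it stayed below every 2D library. The log2 fold change in 3D against 2D was -0.83 (standard error 0.0949, edgeR adjusted p = 2.43e-06), and -0.96 without that library.

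Cxcl3 was a rare transcript at 0.66, 0.45 and 0.65 CPM in 3D without palmitate, at 0.99, 0.84 and 0.77 CPM in 3D with palmitate and at 4.88, 4.77 and 6.19 CPM in 2D. The 3D values rest on 5 to 27 counts per library and the 2D values on 59 to 149. All 2D libraries lay above all 3D libraries, and the log2 fold change was -2.53 (standard error 0.212, edgeR adjusted p = 8.92e-08). Cxcl2 was at 0.76, 0.78 and 1.30 CPM in 3D without palmitate, at 1.25, 1.06 and 1.38 CPM in 3D with palmitate and at 1.32, 1.83 and 2.23 CPM in 2D, on 9 to 57 counts. Neighbouring conditions overlapped, 3D with palmitate with each of the others, and the log2 fold change of -0.61 had an interval from -1.18 to -0.04 and an edgeR adjusted p of 0.0559. It was called in 2 of the 9 fits that left out 1 library, at edgeR adjusted p = 0.0455 without replicate 3 of 3D without palmitate and 0.0303 without replicate 1 of 2D. Cxcl1 and Cxcl3 had log2 fold changes of 0.06 and -2.53. Their printed windows hold the same 11 NF-κB letters, that of Cxcl3 also TATAAA, and a link between letters and levels was not tested.

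The CC chemokines were lower in 3D where they passed the test. Ccl5, also called RANTES, had the largest change of the 9 tested genes. It was at 1.04, 1.42 and 2.06 CPM in 3D without palmitate, at 2.17, 2.51 and 2.91 CPM in 3D with palmitate and at 21.6, 21.3 and 26.3 CPM in 2D. The lowest 2D library was thus several times above the highest 3D library, and the log2 fold change was -3.27 (standard error 0.173, edgeR adjusted p = 6.83e-10), larger in size than that of 98.7% of all genes.

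Ccl2, the monocyte attractant MCP-1, was at 4.63, 3.68 and 4.99 CPM in 3D without palmitate, at 5.01, 4.25 and 4.13 CPM in 3D with palmitate and at 16.7, 14.5 and 14.9 CPM in 2D. The 3D conditions overlapped and both lay under 2D, at a log2 fold change of -1.73 (standard error 0.130, edgeR adjusted p = 3.01e-08). Its neighbour Ccl7 had 1, 4 and 1 counts in 3D without palmitate, 7, 0 and 3 counts in 3D with palmitate and 12, 16 and 15 counts in 2D. In CPM these were 0.12 ± 0.12, 0.24 ± 0.23 and 0.72 ± 0.24 (SD, n = 3 each). The 3 2D libraries were the highest of the 9, and the 2-sided exact permutation test against 3D with palmitate gave p = 0.1, the smallest that 3 libraries against 3 allow. Fits whose filter kept Ccl7 gave log2 fold changes between -2.06 and -1.13 and edgeR adjusted p from 0.00871 to 0.0862. Apart from the fit without a filter, Ccl7 was kept only through the 2D libraries, where it was highest, so these values are described only.

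Ccl20 was at 1.98, 2.58 and 2.71 CPM in 3D without palmitate, at 4.20, 3.65 and 3.37 CPM in 3D with palmitate and at 5.13, 4.45 and 4.81 CPM in 2D. The conditions followed each other without overlap, 2D on top. The difference between 3D with palmitate and 2D did not pass the test, at a log2 fold change of -0.29, with an interval from -0.63 to 0.04 (edgeR adjusted p = 0.107). Cxcl3, Cxcl16 and Ccl5 had the same order of 3 conditions without overlap, and the other genes overlapped between at least 1 pair of neighbouring conditions.

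Neutrophil and macrophage markers were mostly under 1 CPM, and the better-covered Cd68 and Cd14 were both lower in 3D than in 2D. Of the 11 neutrophil and macrophage markers in the table, 9 stayed under 1 CPM in every library, the defining macrophage gene Adgre1 was at 0 in all 9, and their summed level was 13.5 to 14.8 CPM in 3D without palmitate, 17.3 to 19.9 CPM in 3D with palmitate and 34.0 to 39.0 CPM in 2D. This sum was made up mostly of Cd68, at 9.40 ± 1.7 CPM (SD, n = 3) in 3D with palmitate and 25.7 ± 1.8 CPM (SD, n = 3) in 2D, and Cd14, at 7.55 ± 0.13 CPM (SD, n = 3) and 10.8 ± 1.6 CPM (SD, n = 3). Cd68 and Cd14 were both called lower in 3D (edgeR adjusted p = 2.41e-07 and 0.00351). S100a8 was called higher at under 1 CPM, on 31 counts in all in 3D with palmitate and 17 in 2D. It passed the filter only through the libraries of 3D with palmitate, where it was highest, so its call is described only. Ptprc and Itgam did not pass the filter. Ptprc had 17 counts in all in 3D with palmitate and 4 in 2D, and Itgam had 4 and 2. These counts are too few to read a direction from. Among the 8 fibroblast markers, 3 were tested, 1 called higher and 2 called lower in 3D than in 2D, beside 34.5% and 33.9% of all genes. Pdgfra was at 98.8 ± 10.1 CPM (SD, n = 3) in 3D with palmitate and 30.4 ± 0.82 CPM (SD, n = 3) in 2D (edgeR adjusted p = 3.27e-10). Col1a1 was at 0.85 ± 0.69 and 2.18 ± 0.22 CPM (SD, n = 3 each, edgeR adjusted p = 0.0139), and Col1a2 had 2 counts in all in 3D with palmitate and 80 in 2D (edgeR adjusted p = 1.28e-05). Col1a2 passed the filter only through the 2D libraries, where it was high, so its call is described only. Col3a1 and Lum were at 0 throughout. The part of these differences in the chemokine values was not tested.

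**Figure D3:**
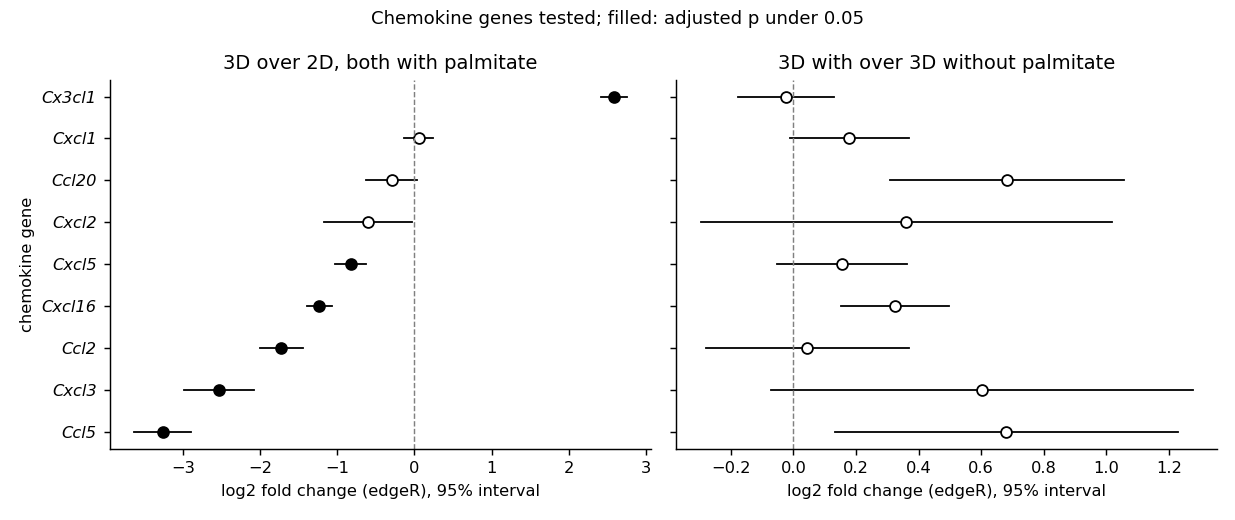
Log2 fold changes (edgeR) of the 9 chemokine genes tested, with 95% intervals, for 3D over 2D with palmitate (left) and 3D with over 3D without palmitate (right; the axes differ in range). Filled circles are genes with an adjusted p under 0.05: 6 on the left, with Cx3cl1 at 2.58 and Ccl5 at -3.27 as the extremes, and 0 on the right.

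Whether added palmitate changed chemokine transcripts was then asked within 3D cultures. None of the 9 genes was called with edgeR, beside 2.19% of all genes, 1.38% higher and 0.811% lower with palmitate. At an unadjusted p under 0.05 there were 3, Cxcl16, Ccl5 and Ccl20, and DESeq2 on the same 9 libraries called 1, Cxcl16. The estimates were above 0 for 8 of the 9 genes, beside 52.2% of all genes, and their median log2 fold change was 0.33 beside 0.01. The libraries of the 2 conditions did not overlap for Cxcl3, Cxcl16, Ccl5 and Ccl20, 4 of the 9, beside 18.6% of all genes. No test was made of the list as a whole.

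Cxcl16 had the smallest adjusted p. Its mean was 30.3 ± 3.1 CPM (SD, n = 3) without and 37.9 ± 0.95 CPM (SD, n = 3) with palmitate, and the log2 fold change was 0.33, with an interval from 0.15 to 0.50 (edgeR adjusted p = 0.0524). Ccl20 was at 2.43 ± 0.39 CPM (SD, n = 3) without and 3.74 ± 0.42 CPM (SD, n = 3) with palmitate, a log2 fold change of 0.68 with an interval from 0.31 to 1.06 (edgeR adjusted p = 0.0580). Both lay just above the threshold and their calls turned on the setting. Without replicate 3 of 3D with palmitate, the adjusted p of edgeR was 0.0164 for Cxcl16 and 0.0158 for Ccl20. With the share of Rn45s as a covariate it was 0.222 for Cxcl16 and 0.304 for Ccl20.

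**Figure D4:**
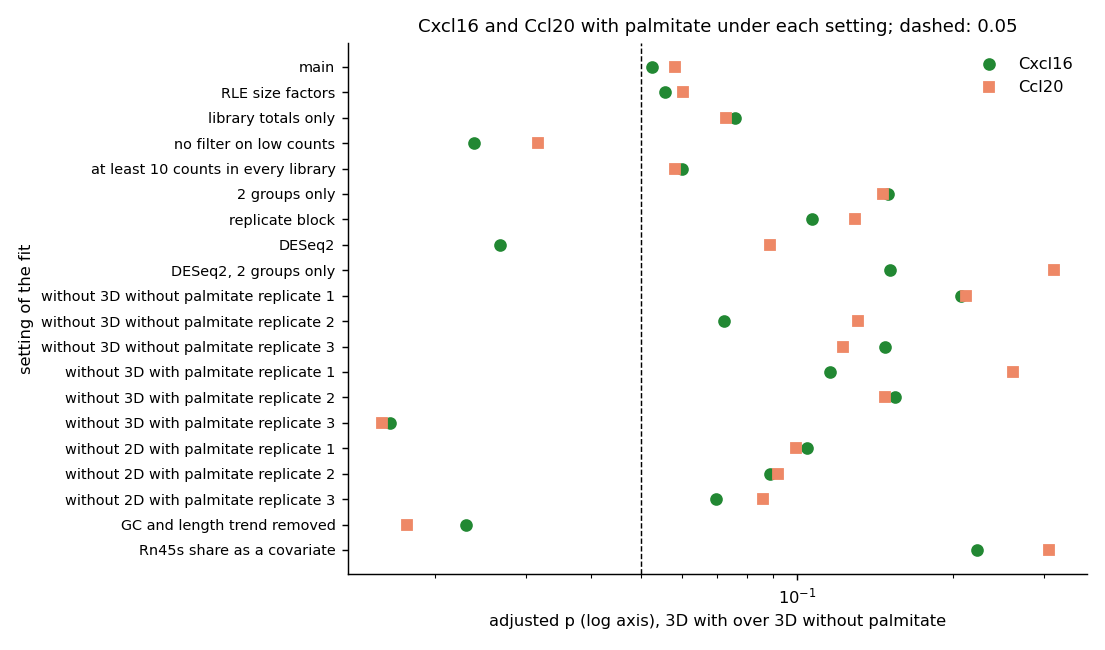
Adjusted p (log axis) of Cxcl16 (circles) and Ccl20 (squares) for 3D with over 3D without palmitate, 1 row per setting of the fit; the dashed line is 0.05. The points lie on both sides of the line: 4 of 19 alternatives called Cxcl16 and 3 of 19 called Ccl20.

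Ccl5 was at 1.51 ± 0.52 CPM without and 2.53 ± 0.37 CPM with palmitate (SD, n = 3 each) and did not pass the test, at a log2 fold change of 0.68 with an interval from 0.13 to 1.23 (edgeR adjusted p = 0.187). Cxcl3 had a log2 fold change of 0.60 with an interval from -0.07 to 1.28 (edgeR adjusted p = 0.345), and Cxcl2 one of 0.36 with an interval from -0.30 to 1.02 (edgeR adjusted p = 0.598). For these low genes a change by a factor of more than 2 lies within the interval, so the depth limits what can be said. The abundant genes were estimated more closely. Cx3cl1 had a log2 fold change of -0.02 with an interval from -0.18 to 0.13 (edgeR adjusted p = 0.909), Cxcl1 one of 0.18 with an interval from -0.01 to 0.37 (edgeR adjusted p = 0.318) and Cxcl5 one of 0.15 with an interval from -0.05 to 0.36 (edgeR adjusted p = 0.438). The last 2 rest on the smallest library, without which they were 0.07 and 0.02. Ccl2 had a log2 fold change of 0.04 with an interval from -0.28 to 0.37 (edgeR adjusted p = 0.919).

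Other chemokine ligands were scarce in 4T1 cells. Of 28 further ligand genes, 11 were at 0 in all libraries, 24 stayed under 1 CPM everywhere and 4 passed the filter on low counts. Of these 4, 0 were called higher and 2 lower in 3D than in 2D, beside 34.5% and 33.9% of all genes. Cxcl10, an interferon-induced ligand of CXCR3, was at 1.99, 2.96 and 2.14 CPM in 3D with palmitate and at 7.20, 8.59 and 8.06 CPM in 2D, a log2 fold change of -1.79 (standard error 0.172, edgeR adjusted p = 3.75e-07). Ccl25, a ligand of CCR9, had a log2 fold change of -0.58 (standard error 0.161, edgeR adjusted p = 0.00549). With palmitate in 3D, 0 of the 4 were called, beside 2.19% of all genes.

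Chemokine receptors of the same cells were also mostly silent, and 5 of 23 passed the filter. Cxcr3, the receptor for CXCL10, was at 22.7 ± 1.5 CPM (SD, n = 3) in 3D with palmitate and 0.55 ± 0.11 CPM (SD, n = 3) in 2D, a log2 fold change of 5.45 (standard error 0.152, edgeR adjusted p = 1.18e-12). These values rest on 1096 counts in all in 3D with palmitate and 34 in 2D. Cxcr3 passed the filter only through the 3D libraries, where it was high, so its call is described only. Cxcr2, the receptor for CXCL1, CXCL2, CXCL3 and CXCL5, was at 0.78 ± 0.17 CPM (SD, n = 3) in 3D with palmitate and 0.07 ± 0.03 CPM (SD, n = 3) in 2D, on 39 against 4 counts in all. Cxcr2 also passed the filter only through the 3D libraries, where it was high. It was called higher in 3D (edgeR adjusted p = 4.75e-05), which is therefore described only. The size of a fold against so few counts is uncertain and is not given. Cxcr5 was higher in 3D, with a log2 fold change of 0.73, and the scavenging receptor Ackr3 lower, with -0.64 (edgeR adjusted p = 0.00180 and 1.38e-06). None of the 5 was called with palmitate by edgeR, beside 2.19% of all genes.

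The sheddases of membrane-bound chemokines were both higher in 3D than in 2D with palmitate, beside 34.5% of all genes called higher. Adam10 was at 358 ± 47 CPM (SD, n = 3) in 3D and 166 ± 11 CPM (SD, n = 3) in 2D, a log2 fold change of 1.11 (standard error 0.0845, edgeR adjusted p = 3.34e-08). For Adam17 the log2 fold change was 0.55 (standard error 0.0932, edgeR adjusted p = 0.000114). Dpp4, whose product trims chemokines at their amino end, was at 0 in all libraries.

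Regulators of chemokine messages and genes were mixed. Of 7 genes for message decay and stability, 2 were higher and 4 lower in 3D, among them Zfp36l2, a protein that binds AU-rich elements, at a log2 fold change of 0.97, and Hnrnpd, Khsrp and Zc3h12a at -0.95, -0.34 and -0.26. Of 11 NF-κB subunits and inhibitors, 1 was higher and 7 lower in 3D, with a median log2 fold change of -0.43. Called in either direction were 6 of the 7 and 8 of the 11, beside 68.3% of all genes. The inhibitors Nfkbib, Nfkbie and Nfkbia had log2 fold changes of -0.99, -0.71 and -0.60, and Nfkb2, a subunit, had -0.61. With palmitate in 3D 1 of the 11 was called, beside 2.19% of all genes: Nfkbiz, an atypical member of the inhibitor family, rose from 68.0 ± 1.3 to 82.6 ± 3.5 CPM (SD, n = 3 each), a log2 fold change of 0.28 (edgeR adjusted p = 0.0274).

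Of 13 cytokines and receptors tested that are known to induce chemokines, 10 were called higher in 3D than in 2D and 0 lower, beside 34.5% and 33.9% of all genes, with a median log2 fold change of 0.97 beside 0.01. The receptors Il1r1 and Il6ra had log2 fold changes of 2.24 and 2.04 (edgeR adjusted p = 2.80e-12 and 2.10e-11), and the TNF receptors Tnfrsf1b and Tnfrsf1a had 1.35 and 0.97. With palmitate in 3D 1 of the 13 was called, beside 2.19% of all genes. Il1a, which encodes interleukin 1α, was at 70.1 ± 3.0 CPM without and 112 ± 12 CPM with palmitate (SD, n = 3 each), a log2 fold change of 0.66 (standard error 0.0745, edgeR adjusted p = 0.000670).

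**Figure D5:**
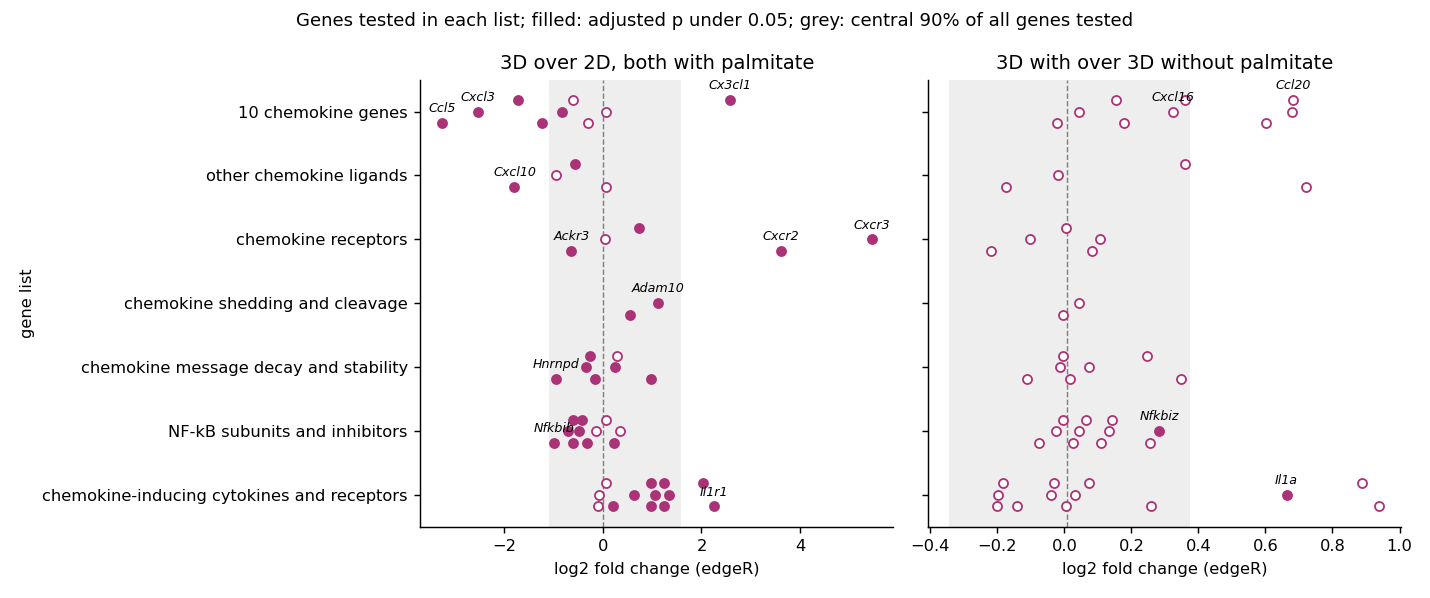
Log2 fold changes (edgeR) of the genes tested in 7 lists, for 3D over 2D with palmitate (left) and 3D with over 3D without palmitate (right; the axes differ in range); each circle is 1 gene, filled where the adjusted p was under 0.05, and grey marks the central 90% of all genes tested. On the left filled circles of the 10 chemokine genes reach from Ccl5 at -3.27 to Cx3cl1 at 2.58; on the right the filled circles are Nfkbiz at 0.28 and Il1a at 0.66.

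Genes with the pattern most like that of 2 chemokines were sought among all genes tested, by the Euclidean distance between log2 CPM profiles over the 9 libraries, each centred on its own mean. For Cxcl1 they were Abcc5, Galnt3 and Eme1, at distances of 0.18, 0.20 and 0.23 beside a median of 0.90 over all genes. For Ccl5, the CC gene with the highest mean CPM, they were Igf2bp1, Ankrd1 and Cyr61, at 0.94, 0.98 and 1.06 beside a median of 5.13. Igf2bp1, Ankrd1 and Cyr61 had log2 fold changes in 3D against 2D of -2.92, -3.14 and -3.42. These 9 libraries fall into few conditions, so a small distance says mainly that the condition means were alike.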

How the data were processed

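Raw counts of reads on each gene were deposited for 9 poly(A) libraries of 4T1 cells, prepared with a stranded kit and sequenced as single reads of 50 bases. According to the labels and methods, reads were checked with FastQC 0.11.9, aligned to GRCm38 with HISAT2 2.1.0 and counted with HTSeq; its strand setting and annotation are not given in the sources used here. Samples were grouped by their labels. Counts were filtered with filterByExpr, scaled by TMM and fitted in edgeR 4.0.16 (R 4.3.3) with condition as the only term over all 9 libraries. Both contrasts used the quasi-likelihood test, Benjamini-Hochberg adjustment over 12575 genes and a threshold of 0.05. CPM are counts scaled to 1000000 per TMM-scaled library, divided by the exon length of GENCODE M21 where given per kb. A prior count of 2 was used for log2 profiles. Exact permutation tests were 2-sided. Intervals of fold changes are at 95%. The scripts were tested on simulated data.

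The 10 genes and the other lists were chosen with earlier results of these data known. All 10 genes are named; from each other list the called genes with the smallest p, at most 4, were named, with the gene of highest CPM. Nfkbiz, Il1a, Dpp4, Adgre1, Ptprc, Itgam, Col3a1, Lum, Krt5, Krt14, Cdh1 and Zmynd15 were named after their values were seen. The 3 genes most alike were taken for the CXC gene and the CC gene with the highest mean CPM. Alternatives were RLE scaling, library totals only, other filters, 2 groups only, a replicate block, DESeq2 1.42.0, a minimum log2 fold change of 0.5 and each library left out. Removal of the GC and length trend, by splines with 4 degrees of freedom for 12125 genes with both values, and the Rn45s share as a covariate were chosen after seeing the data.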

Additional observations from a re-analysis of the deposited data

How the results depend on the processing

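The 6 chemokine genes called between 3D and 2D kept their direction and call in every alternative in which they were tested, 18 for Cxcl3 and 19 for each of the others; 6 to 8 members were called in fits without 1 library, the additions being Cxcl2 and Ccl7. With palmitate in 3D the number of chemokine genes called went from 0 to 2 without the filter on low counts, to 2 also after correction for GC content and length, to 1 with DESeq2, and to between 0 and 2 without 1 library, 2 only without replicate 3 of 3D with palmitate. Signs that turned belonged to uncalled genes. Without 1 library, Cxcl1 lay between -0.056 and 0.12 in 3D against 2D, the lowest without replicate 3 of 3D with palmitate, and with palmitate Ccl2 lay between -0.087 and 0.13 and Cx3cl1 between -0.095 and 0.035. The Rn45s covariate gave -0.018 for Ccl2 with palmitate. Over all genes, the 8594 called between 3D and 2D became 5113 at a minimum absolute log2 fold change of 0.5 and 7977 to 8866 without 1 library. The 275 called with palmitate became 617 without the filter, 77 with 2 groups only, 111 with the replicate block, 182 with DESeq2 on 2 groups, 119 at the minimum change, 977 after correction for GC content and length, 44 with the Rn45s covariate and 71 to 1901 without 1 library, the highest without replicate 3 of 3D with palmitate and the lowest without replicate 3 of 3D without palmitate. They split into 173 higher and 102 lower, but 106 and 121 when scaled by library totals only. Causes were not tested. Deviations of same-numbered libraries correlated at -0.24 to 0.15 and those of differently numbered ones at -0.17 to 0.28. No pairing by replicate number was seen, but 3 libraries per condition are too few to exclude it. The replicate block changed no call of a chemokine gene. Counts of 0 to 59 per 3D library limit Cxcl2, Cxcl3, Ccl5 and Ccl7.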
